A study of Mus musculus with 6 samples.

Results

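The genes described are the chemokines, the interleukins and their receptors, as measured in whole liver of mice lacking SIRT1 in the liver. Their probes were taken by the gene name printed in the array files (names beginning with Ccl, Ccr, Cxcl, Cxcr or Il and a digit), and a probe was kept where the scanner flagged it as well above background on all 3 arrays of a genotype. The name rule found 181 probes for 128 genes, and 86 probes for 66 genes were kept, so that 51.6% of the genes were detected. On the whole array, 23592 of 41174 probes were kept by the same flag. The 66 genes were thus chosen by gene name and by the background flag, and their detection is given as a description, without a test. Of 16513 genes that passed the same flag on the whole array, the 66 are the subject here, and 59 of them were above background on all 6 arrays and were tested for genotype.

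SIRT1 LKO mice carry a liver-specific knockout of SIRT1, an NAD-dependent protein deacetylase, and were set against Lox control mice. All were male, 10 weeks old, on a 95% C57BL/6 background, on chow with free access to food and water, and were killed at 4 pm. Each genotype had 6 animals, whose liver RNA was combined into 3 pools of 2 animals, and 500 ng of each pool was labelled with Cy3 and hybridised to its own 1-colour Agilent whole mouse array. The labels name neither the Cre line nor the exons it removes, and non-parenchymal cells were part of the tissue. The fed state and the hour were chosen, per the series' design, to study phenotypes mediated by PPAR-alpha.

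Chemokines are small secreted proteins that draw leukocytes along a gradient by binding G-protein-coupled receptors on them, and CC and CXC chemokines are named after the spacing of conserved cysteines. Interleukins act through receptor chains that mostly signal by JAK kinases and STAT factors, while the IL-1 and IL-17 receptor families signal through adaptor proteins to NF-kappaB. In the liver, hepatocytes carry receptors for IL-6 and IL-1 and answer with acute-phase proteins, and Kupffer cells, endothelial cells and resident lymphocytes make or sense many of the others.

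A level is the log2 of the processed spot intensity minus the log2 of that array's 75th percentile, so 0 is the 75th percentile of the array. Levels of different probes cannot be set against each other. The 75th percentile lay between 1005 and 1056 intensity units on 5 arrays and was 1289 on SIRT1 LKO pool 3. Between 52.2% and 66.4% of all probes were well above background per array, and precision is limited by having 3 arrays a genotype. The 3 Control arrays shared a slide, SIRT1 LKO pools 1 and 2 shared another and SIRT1 LKO pool 3 lay on its own slide, so slide and genotype cannot be told apart. SIRT1 LKO pool 3 stands apart in a further way: its column in the deposited value table matched its scanner file within 1% for 0.853% of the probes, against 99.8% for each of the other arrays. The scanner value is used throughout. The members with the smallest p (Ccr6, Il27, Ccl7, Il1rn and Cxcl1) are also given with its table value and without this pool. The 13 hepatocyte markers were all above background, with a summed linear level of 2505 to 3041 in SIRT1 LKO pools and 2428 to 2864 in Control pools. The Sirt1 probe read -0.07, 0.09 and 0.16 in SIRT1 LKO pools and 0.29, 0.37 and 0.24 in Control pools, a difference of -0.24 (limma, adjusted p = 0.237). Every SIRT1 LKO value was below every Control value, but where the probe lies relative to the deleted part is not known, so it does not check the labels.

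By role, CXC chemokines were detected in 10 of 13 genes and interleukin receptor chains in 24 of 38, against 10 of 20 CC chemokines, 7 of 16 chemokine receptors and 12 of 36 interleukin ligands. Of the 62 genes that were not kept, 33 were above background on no array and 29 on some. Among them were Il6 and Il10, the acute-phase inducer and the anti-inflammatory interleukin, the macrophage chemokines Ccl3 and Ccl4, the neutrophil chemokines Cxcl2 and Cxcl5, and the receptors Ccr2 and Cxcr4. Il6 was above background on 1 Control array and on no SIRT1 LKO array, and Il10 on no array.

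**Figure D1:**
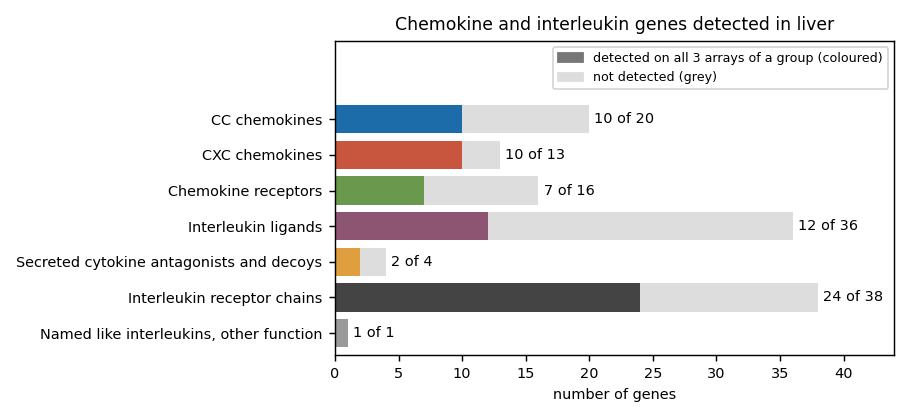
Number of genes (horizontal axis) of each role on the array (full bar) and detected on all 3 arrays of at least one genotype (coloured). The detected share ran from 12 of 36 for interleukin ligands to 10 of 13 for CXC chemokines, leaving aside the group of 1 gene.

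All 7 genes that met the flag in only one genotype met it through SIRT1 LKO: Ccr3, Ccr9, Cxcr2, Il13, Il1rl2, Il22ra1 and Ppbp. On the whole array, 1523 genes passed through SIRT1 LKO only and 33 through Control only. These 7 had no test. Just inside the limit, Il22ra1, a chain of the IL-22 receptor, read -5.31, -4.85 and -4.98 in SIRT1 LKO pools and -4.38, -4.62 and -4.78 in Control pools. Just outside it, Ccr2, the CCL2 receptor of monocytes, read -4.99, -4.85 and -5.63 in SIRT1 LKO pools and -3.73, -5.06 and -5.06 in Control pools, above background on 2 and 1 arrays.

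No member passed the genotype test. The limma fit over all 16513 genes called 24 of them at an adjusted p under 0.05, which is 0.145% of the genes, and 0 of the 59 members. Of the 14957 genes above background on all 6 arrays, 0.12% were called with a difference below 0 and 0.0201% with one above 0. With the value table in place of the scanner files, 0.533% of the 16513 genes and 0 members were called. At an unadjusted p under 0.05, 8 members had a difference below 0 and 1 above 0, which is 13.6% and 1.69% of the members. The same counts over the 14957 genes above background on all 6 arrays were 10.7% lower and 10.4% higher. Over the members, 34 differences were below 0 (57.6%, against 47.5% of all genes) and 25 above 0 (42.4%, against 52.5%). Their median was -0.04, beside 0.01 over all genes. In whole tissue, a lower level from fewer cells of a type and one from less RNA per cell cannot be told apart. Kupffer cell and macrophage markers leaned the same way, with 17 of 19 differences below 0, a median of -0.18 and none called, and with the table value of SIRT1 LKO pool 3 their median was 0.21. Their part in the members' differences was not tested. The precision varied by gene: the 95% interval of the difference ran from -0.13 to 0.29 for Cxcl12 and from -1.03 to 0.83 for Cxcl9.

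**Figure D2:**
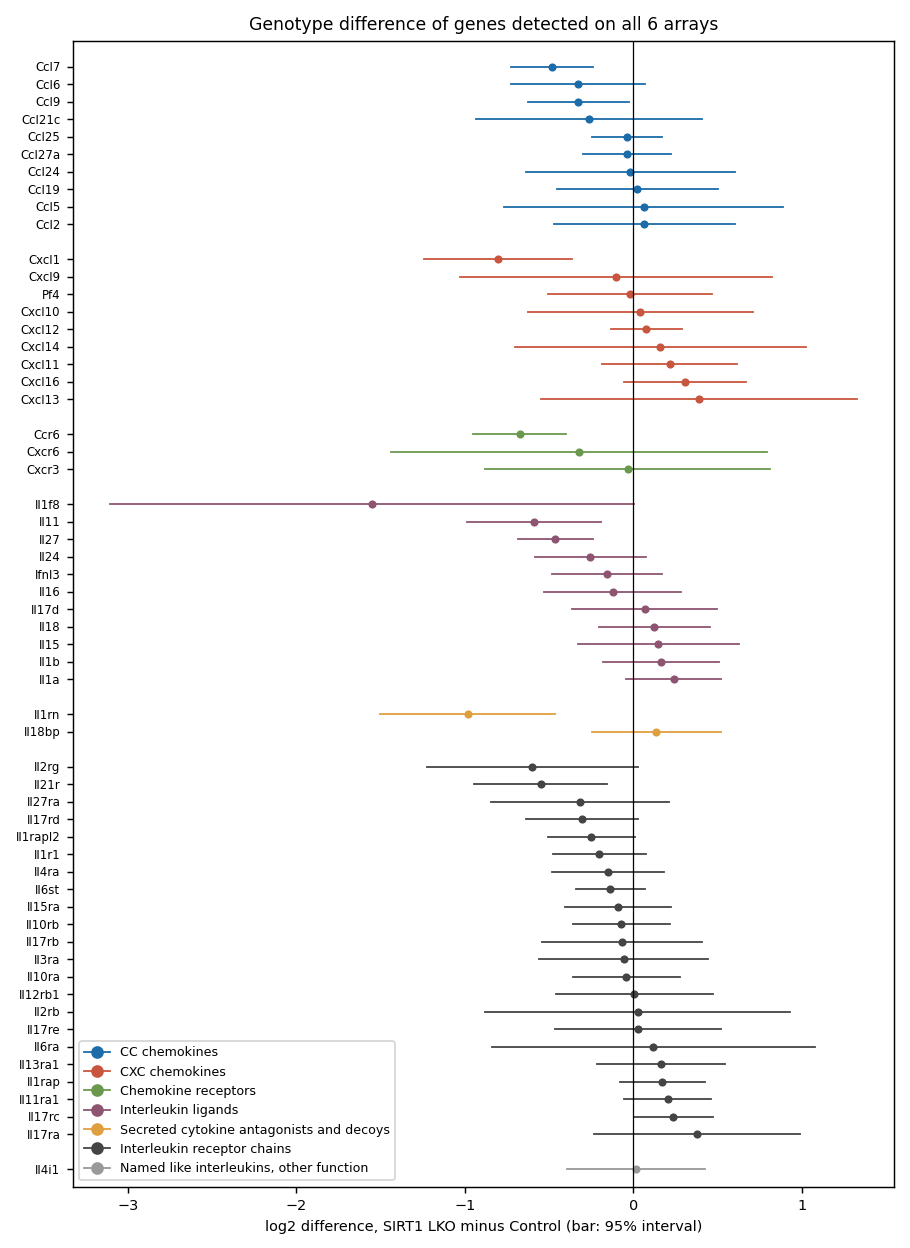
Log2 difference, SIRT1 LKO minus Control (horizontal axis), of 58 of the 59 genes above background on all 6 arrays, ordered within each role; points are limma estimates and bars 95% intervals from 3 pools per genotype. Intervals not reaching 0 are unadjusted for the number of genes, and none of these genes passed the adjusted test.

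Among the CC chemokines, the monocyte attractant Ccl7 had its probe at chr11:82128577-82128636 (mouse build mm7, plus strand). It was -3.17, -3.35 and -3.24 in SIRT1 LKO pools and -2.65, -2.84 and -2.82 in Control pools. All SIRT1 LKO values were below all Control values, and the difference was -0.48 (95% interval -0.73 to -0.24, limma adjusted p = 0.088). It was -0.40 with the table value of SIRT1 LKO pool 3 (limma adjusted p = 0.111), -0.49 without that pool (limma adjusted p = 0.065) and -0.17 with normexp background correction. Normexp was run with an offset of 50 intensity units, which by itself pulls log2 differences of faint probes toward 0. The normexp values of faint members therefore cannot show whether their differences are unstable. A second Ccl7 probe, not used, was above background on no array. Ccl9, a macrophage-derived chemokine of rodents, averaged 2.99 ± 0.11 in SIRT1 LKO and 3.31 ± 0.18 in Control (SD, n = 3 each), a difference of -0.33 (limma adjusted p = 0.211). With the table value of SIRT1 LKO pool 3 in place of the scanner value, the Ccl9 difference was -0.06. Ccl5, a chemokine of T and NK cells, was -0.15, -0.47 and -1.10 in SIRT1 LKO pools and -0.02, -0.81 and -1.09 in Control pools, so the genotypes overlapped. Its difference was 0.06, and 0.81 with the table value of SIRT1 LKO pool 3 (limma adjusted p = 0.324). Ccl6, a further macrophage-derived chemokine of rodents, was 0.40, 0.41 and 0.28 in SIRT1 LKO pools and 1.01, 0.68 and 0.39 in Control pools, where pool 3 fell among the SIRT1 LKO values. Ccl2, the ligand of CCR2, averaged -3.25 ± 0.25 in SIRT1 LKO and -3.32 ± 0.39 in Control (SD, n = 3 each), also overlapping. Ccl25 and Ccl27a, which attract T cells to gut and skin, had differences of -0.04 each, and Ccl19 and Ccl21c, ligands of CCR7, of 0.02 and -0.26. Ccl24, an eosinophil attractant, read 0.38, 0.62 and -0.31 in SIRT1 LKO pools and 0.27, 0.49 and -0.02 in Control pools, with pool 3 lowest in both genotypes.

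Among the CXC chemokines, Cxcl1, a neutrophil attractant and a classical NF-kappaB target (probe at chr5:90882059-90882118, mm7, plus strand), was -1.28, -0.72 and -0.95 in SIRT1 LKO pools and -0.44, -0.05 and -0.06 in Control pools. The genotypes did not overlap, and the difference was -0.80 (95% interval -1.24 to -0.36; limma adjusted p = 0.100). Its table value in SIRT1 LKO pool 3 was 0.11, above all 3 Control values, and with it the difference was -0.45 (limma adjusted p = 0.447). Without that pool it was -0.82 (limma adjusted p = 0.084). Cxcl9 and Cxcl10, interferon-induced ligands of CXCR3, differed by -0.10 and 0.04, and their genotypes overlapped. With the table value of SIRT1 LKO pool 3 the differences were 0.93 and 0.68 (limma adjusted p = 0.301 and 0.259). Cxcl12, the ligand of CXCR4, varied little, at 5.63, 5.63 and 5.55 in SIRT1 LKO pools and 5.56, 5.44 and 5.58 in Control pools. Cxcl16, the ligand of CXCR6, was -0.27, -0.19 and -0.59 in SIRT1 LKO pools and -0.46, -0.70 and -0.81 in Control pools. Its difference of 0.31 did not pass the test (limma adjusted p = 0.295), and a second probe of the gene gave -0.09. Cxcl13, a B cell attractant, stood out in SIRT1 LKO pool 3 at -1.16. It read -2.63 and -2.44 in the other SIRT1 LKO pools and -2.19, -2.53 and -2.67 in Control pools. Cxcl11, a further CXCR3 ligand, Cxcl14 and the platelet chemokine Pf4 had differences of 0.22, 0.16 and -0.02.

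The promoter windows of 3 of these chemokines, the 250 bases before the annotated start from RefSeq (build GRCm38.p6), are shown because Cxcl1 had the largest difference among the chemokines with an unadjusted p under 0.05, while Cxcl9 and Cxcl10 were among the 4 tested members with the widest gaps between the deposited values of SIRT1 LKO pool 3. Capitals mark matches on either strand to the NF-kappaB consensus, where overlapping matches form one run, or to the interferon response core, which is GAAA, any 2 bases and GAAA again.
Cxcl1 (chr5:90890995-90891244, + strand): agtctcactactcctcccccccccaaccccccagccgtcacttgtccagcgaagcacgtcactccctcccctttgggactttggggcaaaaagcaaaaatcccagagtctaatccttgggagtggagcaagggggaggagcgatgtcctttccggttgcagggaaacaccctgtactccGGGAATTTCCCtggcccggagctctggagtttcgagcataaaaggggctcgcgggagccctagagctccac
Cxcl9 (chr5:92328080-92328329, - strand): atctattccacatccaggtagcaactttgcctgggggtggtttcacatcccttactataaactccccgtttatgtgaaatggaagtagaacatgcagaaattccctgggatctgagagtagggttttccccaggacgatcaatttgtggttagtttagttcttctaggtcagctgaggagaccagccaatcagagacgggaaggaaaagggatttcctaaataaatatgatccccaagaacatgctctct
Cxcl10 (chr5:92348890-92349139, - strand): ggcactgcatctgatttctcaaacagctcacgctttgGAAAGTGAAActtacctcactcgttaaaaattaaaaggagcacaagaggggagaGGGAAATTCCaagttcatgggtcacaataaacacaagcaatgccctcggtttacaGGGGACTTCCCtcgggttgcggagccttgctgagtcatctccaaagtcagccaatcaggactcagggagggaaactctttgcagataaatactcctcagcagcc
The window of Cxcl1 held the NF-kappaB consensus, that of Cxcl10 held both motifs, and that of Cxcl9 held neither. The consensus was present in 8 of 61 member windows (13.1%), against 7.25% of all 32851 windows. The interferon response core was present in 3 of 61 (4.92%), against 2.98% of all windows. Only 49 of the 66 genes had a window, the motif spellings were settled after several had been counted, and a match describes letters, not binding.

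Among the chemokine receptors, Ccr6, the CCL20 receptor of B cells and some T cells (probe on unlocalised sequence of chromosome 17 in mm7), had the smallest p of all members. It read -4.20, -4.04 and -4.41 in SIRT1 LKO pools and -3.54, -3.53 and -3.54 in Control pools. The genotypes did not overlap, the difference was -0.67 (95% interval -0.95 to -0.40; limma adjusted p = 0.072), and the Control values lay within a standard deviation of 0.01. Without SIRT1 LKO pool 3 the difference was -0.58, and Ccr6 became the only member called (limma adjusted p = 0.049), when 2.72% of all genes were called. It was -0.54 with the table value of that pool (limma adjusted p = 0.053). With normexp background correction it was -0.003, at a level where the offset pulls differences toward 0. Cxcr3 and Cxcr6, receptors of T and NK cells, had differences of -0.03 and -0.32 with overlapping genotypes, and of 0.49 and 0.10 with the table value of SIRT1 LKO pool 3. B cell markers were read beside Ccr6: all 6 measured on every array had a difference below 0, and in 3 of them the genotypes did not overlap, where 14.3% of all genes were separated that way. The summed linear level of the list was 1.05 to 1.90 in SIRT1 LKO pools and 1.79 to 2.29 in Control pools. It was 2.19 with the table value of SIRT1 LKO pool 3, inside the Control range. Cd79a, a defining marker of that list, was not detected, and the part of B cells in the Ccr6 result was not tested.

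Among the interleukin ligands, Il27 encodes a subunit of a cytokine of antigen-presenting cells (probe at chr7:122689181-122689240, mm7, minus strand). It read 0.27, 0.40 and 0.47 in SIRT1 LKO pools and 0.81, 0.85 and 0.87 in Control pools. The genotypes did not overlap, and the difference was -0.46 (95% interval -0.68 to -0.24; limma adjusted p = 0.083). It was -0.39 with the table value of SIRT1 LKO pool 3 (limma adjusted p = 0.114) and -0.51 without that pool (limma adjusted p = 0.052). Il1rn, which encodes the secreted IL-1 receptor antagonist (probe at chr2:24357916-24357975, mm7, plus strand), was -4.22, -4.74 and -3.97 in SIRT1 LKO pools and -3.15, -3.27 and -3.55 in Control pools. This was the largest difference among the members with an unadjusted p under 0.05, at -0.98 (95% interval -1.50 to -0.46, limma adjusted p = 0.095). It was also the only one of the 9 whose table value in SIRT1 LKO pool 3, at -4.41, lay below the scanner value. The Il1rn difference was -1.13 with that table value (limma adjusted p = 0.053), -1.15 without the pool (limma adjusted p = 0.054) and -0.14 with normexp background correction. A second Il1rn probe, not used, was above background on 1 Control array and on no SIRT1 LKO array. Il11, a gp130 cytokine, had a difference of -0.59 (limma adjusted p = 0.132), which turned to 0.11 with normexp background correction. Il1f8, a member of the IL-1 family, had the most negative difference of all members, -1.55, and the genotypes did not overlap. Its size rested on Control pool 2 at -1.94, against -4.46 and -4.21 in the other Control pools, and without that pool the difference was -0.75 (limma adjusted p = 0.246). Il1a and Il1b, the agonists that Il1rn opposes, had differences of 0.24 and 0.16, and Il18, an inflammasome product, of 0.13, none of which passed the test. Il18bp, the secreted inhibitor of IL-18, averaged -0.09 ± 0.25 in SIRT1 LKO and -0.22 ± 0.18 in Control (SD, n = 3 each), with overlapping pools and a second probe of opposite sign. Il15, which sustains NK and memory T cells, was -2.85, -2.87 and -2.86 in SIRT1 LKO pools and -2.63, -2.98 and -3.43 in Control pools. The SIRT1 LKO pools of Il15 lay within the Control range, and its second probe gave a difference of -0.31. Il16, Il17d, Il24 and Ifnl3 had differences of -0.12, 0.07, -0.25 and -0.16. Il4i1, an amino acid oxidase that only shares the name, differed by 0.01.

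Among the interleukin receptor chains, the lymphocyte receptor Il21r averaged -4.05 ± 0.18 in SIRT1 LKO and -3.51 ± 0.26 in Control (SD, n = 3 each), a difference of -0.55 (limma adjusted p = 0.145), which was -0.05 with normexp background correction. Il17rc, a chain of the IL-17 receptor, was the only member higher at an unadjusted p under 0.05, at 4.15, 4.11 and 4.10 in SIRT1 LKO pools and 3.74, 3.95 and 3.97 in Control pools. Its difference was 0.24 (limma adjusted p = 0.234) and -0.02 with normexp background correction, and of its other probes one moved the same way and one the opposite way. Il11ra1, the IL-11 receptor chain, was also separated upward, with a difference of 0.20. Il6st, the shared gp130 chain, read 2.40, 2.31 and 2.42 in SIRT1 LKO pools and 2.48, 2.55 and 2.50 in Control pools, a difference of -0.14 (limma adjusted p = 0.400). Il6ra, its IL-6-binding partner, read 0.31, 0.38 and 0.54 in SIRT1 LKO pools and -0.68, 0.65 and 0.90 in Control pools, so the Control pools lay on both sides of the others. Il1r1, the signalling IL-1 receptor, was 2.66, 2.54 and 2.42 in SIRT1 LKO pools and 2.90, 2.67 and 2.65 in Control pools, overlapping by a narrow margin. Its partner chain Il1rap had a difference of 0.17, with -0.22 at a second probe. Il2rg, the common gamma chain of lymphocyte receptors, read -4.24, -3.86 and -3.85 in SIRT1 LKO pools and -2.84, -3.48 and -3.82 in Control pools. The genotypes did not overlap, by a small gap, and the difference was -0.60 (limma adjusted p = 0.253). With the table value of SIRT1 LKO pool 3, -2.82, they overlapped and the difference was -0.26, and the smallest size over the alternatives was -0.06. Il17ra, the chain shared by IL-17 receptors, had a difference of 0.38, in which Control pool 1 at -1.12 lay below every other pool. Il17rd, Il27ra and Il1rapl2 had differences of -0.30, -0.32 and -0.25, and further probes of Il17rd gave -0.68 and -0.37. The other 10 chains, which include Il4ra, Il10rb, Il13ra1 and Il15ra, lay between -0.15 and 0.17. Among the 17 genes with several probes above background, 13 of 19 further probes had the sign of the probe used and 6 had the opposite sign.

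**Figure D3:**
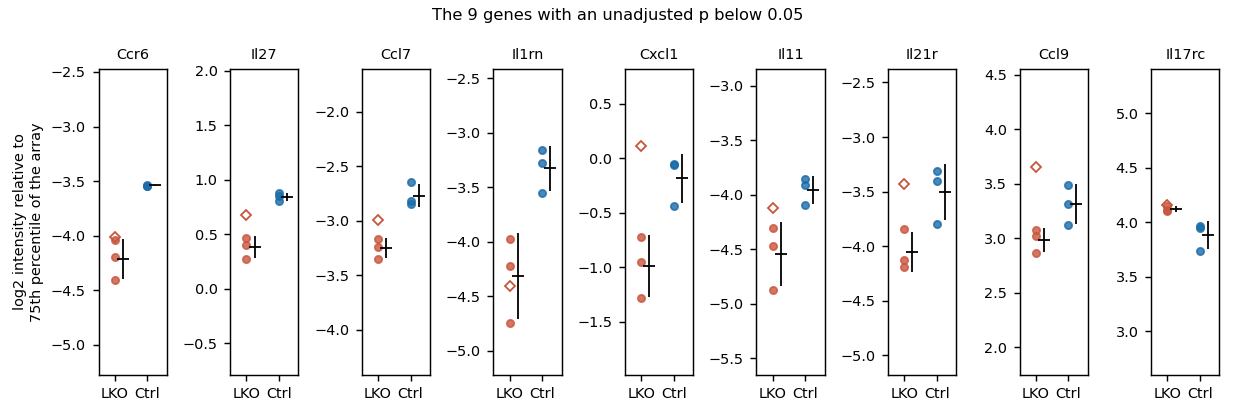
Levels (log2 intensity relative to the array's 75th percentile) of the 9 genes with an unadjusted p under 0.05, SIRT1 LKO left of Control in each panel; filled points are pools from the scanner files, open diamonds SIRT1 LKO pool 3 in the value table, and bars mean and SD of 3 pools. The filled points of the genotypes do not overlap in any panel, and the SIRT1 LKO points are the lower ones in all panels but that of Il17rc; every panel spans the same height.

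Separation was one-sided among the faintest members. All 3 SIRT1 LKO pools were below all 3 Control pools in 13 members (22%), against 14.3% of all genes, and above them in 3 members, Il17rc, Il1a and Il11ra1 (5.08%), against 15.3%. Splitting at a mean level of -3, a limit chosen after the values had been seen, 9 of the 17 members below it were separated downward (52.9%), against 23.1% of all genes that faint, and 1 upward (5.88%, against 7.8%). At or above it, 4 of 42 were separated downward (9.52%, against 12.7%) and 2 upward (4.76%, against 16.6%). With the value table, 6 members were separated downward (10.2%, against 14.0%) and 8 upward (13.6%, against 21.4%). With normexp background correction, 5 members were separated downward (8.47%, against 8.79%) and 0 upward (against 8.65%). Faint probes as a whole were shifted as well: the median difference was -0.13 over all genes below -3 and -0.25 over the members among them.

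SIRT1 LKO pool 3 had different values in its deposited sources, and the cytokine genes were among those that differed. In 16 of the 59 members (27.1%) they lay more than 2-fold apart, all higher in the value table, against 5.53% of all genes apart in either direction and 4.07% higher in the table. The median gap was 0.50 over the members and 0.06 over all genes. Among the tested members, Cxcl9 had the widest gap, 2.64 in the table and -0.45 in the scanner file, which is 8.51-fold. Ccl5 was 4.69-fold apart, Cxcl14 4.15-fold and Cxcl10 3.77-fold. Kupffer cell and macrophage markers moved with them: their summed level in this pool was 195 from the table. In the scanner files it was 99.6 to 123 over SIRT1 LKO pools and 91.7 to 155 over Control pools. The rise was not theirs alone. From the table, the sum in this pool also exceeded every scanner pool for hepatocyte (3183), bile duct (223), stellate cell (95.9) and neutrophil (0.83) markers. It lay below every scanner pool for T and NK cell (14.1) and pancreas (10.45) markers. For B cell, sinusoidal endothelial and adipose markers it lay within the range of the scanner pools. The part of these cell types in the gaps was not tested. With the table in place, 38 members had a difference above 0 (64.4%, against 56.5% of all genes) and 21 below (35.6%, against 43.5%), and the median difference was 0.08 instead of -0.04. The labels credit the table as a whole to Rosetta Resolver and name no separate step for this pool, and which source holds the pool's own RNA level was not tested.

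**Figure D4:**
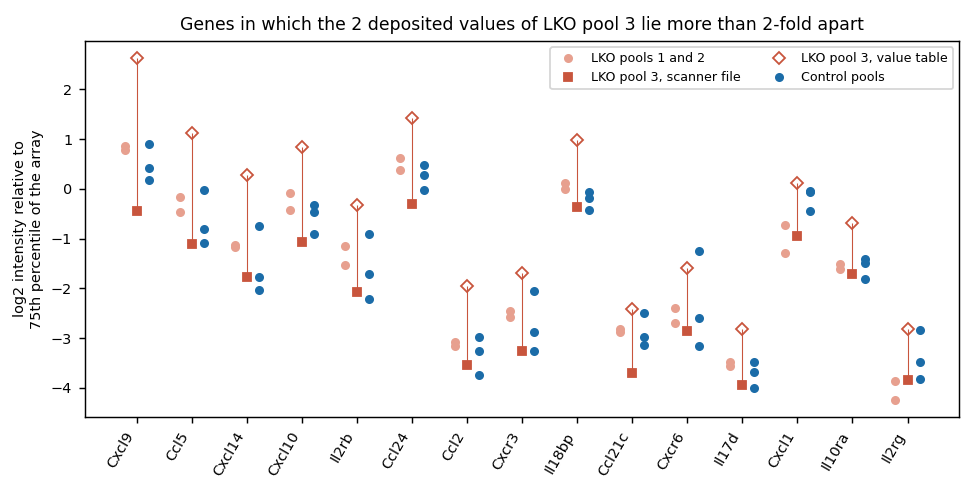
Levels (log2 intensity relative to the array's 75th percentile) of 15 of the 16 tested members whose values in SIRT1 LKO pool 3 lie more than 2-fold apart; pale and filled red points are SIRT1 LKO pools from the scanner files, open diamonds pool 3 in the value table, blue points Control pools. The diamond lies above the scanner value in all 15 genes drawn; levels of different genes cannot be compared.

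A second pattern concerned the Control pools. Ccl5, Cxcl14, Cxcr3, Cxcr6 and Il2rb, the shared IL-2 and IL-15 receptor chain, were more than 1 log2 unit higher in Control pool 1 than in Control pool 3 (8.47% of the members, against 1.35% of all genes). Cxcr6 read -1.24 in pool 1, -2.58 in pool 2 and -3.15 in pool 3 of the Control group. Their genotype differences were between -0.32 and 0.16, smaller than this spread. Some T and NK cell markers moved with this spread. Of the 10 measured on every array, 4 (Nkg7, Cd3d, Lck and Cd3g) were more than 1 log2 unit higher in Control pool 1 than in Control pool 3. Among Kupffer cell and macrophage markers this held for 2 of 19, and among hepatocyte markers for 0 of 13. The other Kupffer cell and macrophage markers were also higher in Control pool 1 than in Control pool 3, by less than that cut. The summed linear level of that list was 155, 120 and 91.7 in Control pools 1, 2 and 3. The sum of T and NK cell markers ran the other way, at 25.2, 30.5 and 38.0. Between genotypes, 4 of the 10 T and NK cell markers had a difference above 0 and 6 below, with a median of -0.03, and none was called. Ncr1, a defining marker of that list, was not detected, and the part of T and NK cells or of macrophages in the spread was not tested.

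Genes of the same pathways were also without a call in the scanner values of all 6 arrays. Of 30 signal transducers, 29 were above background on all 6 arrays, 13 with a difference above 0 and 16 below, with a median of -0.03. Irak1, a kinase of IL-1 receptor signalling, had the smallest p there, at 2.88, 2.87 and 3.03 in SIRT1 LKO pools and 3.47, 3.59 and 3.56 in Control pools (difference -0.61, limma adjusted p = 0.07). It was called with the table value of SIRT1 LKO pool 3 (-0.62, limma adjusted p = 0.047) and without that pool (-0.66, limma adjusted p = 0.048). Pias3, an inhibitor of STAT3, was also called without that pool (-0.76, limma adjusted p = 0.048), against -0.50 with it (limma adjusted p = 0.28). Among 10 atypical and other chemokine genes measured on every array, 3 were above 0 and 7 below. The member Pf4, already given above, is counted among these 10. Cmklr1, the chemerin receptor of macrophages and NK cells, had a difference of -1.43 (limma adjusted p = 0.06), while Rarres2, which encodes chemerin, differed by -0.05. Of 21 gp130, interferon, TNF and CSF genes, 11 were above 0 and 10 below, with a median of 0.01. Il33, Il34 and Il20rb carry older names on the array and were no members; their differences were 0.09, 0.18 and 0.17.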

How the data were processed

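Liver RNA of 3 SIRT1 LKO and 3 Control pools was measured on 6 arrays. The scanner files hold spot intensity deposited by the authors, with a processed signal from which background had been subtracted, per the file headers. The submitters' processing notes name version 9.5 of Agilent Feature Extraction. A value table, also deposited, gives a linear intensity made with the error model of Rosetta Resolver, per the labels. Animals were pooled, so p-values measure the spread between pools.

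From the files, control spots and outlier-flagged spots were removed, spots of a probe were averaged on the log2 scale, and the array's 75th percentile was subtracted. A probe counted as well above background on an array where at least 50% of its spots were flagged so. This left 23592 probes for 16513 genes. Of a gene's probes the one with the highest mean level stood for it. limma 3.58.1 in R 4.3.3 (lmFit, eBayes, two-sided, Benjamini-Hochberg over all genes tested, threshold 0.05) tested genotype without covariates. The fitting script was tested on simulated data. The members and lists were chosen with earlier results of these data known. Named were, per role, the 3 members with the highest mean level and the 3 with the smallest p, besides genes chosen by name. Other members, such as Il2rb, Il24, Il2rg, Cxcl13, Cxcl14 and Ccl24, and genes of the pathway lists were named after their values had been seen. Names came from the array files, updated by accession through RefSeq (GRCm38.p6), and probe coordinates are those of the files (mm7). Exon or UTR positions of the probes were not analysed here. Same-numbered pools had deviations correlated at 0.00, -0.06 and -0.09, and differently numbered ones between -0.06 and 0.12. The reported fit did not pair pools by number, and these values cannot show whether the numbers mark pairs. Some results for single genes are not reported here.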

Additional observations from a re-analysis of the deposited data

How the results depend on the processing

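The members' call was unchanged, at 0 of 59, in all alternatives but one: without a pool it ranged from 0 to 1, and the 1 was Ccr6 without SIRT1 LKO pool 3 (-0.58, limma adjusted p = 0.049). Over all alternatives the adjusted p of Ccr6 ranged from 0.049 to 0.999. The number of genes called on the whole array, 24 in the reported fit, moved more: it was 0 with normexp, with no filter on dim probes and with slide as a random block, 12 with quantile normalization, 13 with outlier spots kept, 15 with every probe on its own, 66 with the filter on all 6 arrays, 68 with an intensity trend and robust variance, and 88 with the value table. Without a pool it ranged from 0 to 449, the highest without SIRT1 LKO pool 3. The cause was not tested. With the pool number as a replicate block, 0 members and 0 genes were called. The count of members with a difference below 0, 34, was 21 with the value table and 27 to 42 without a pool. Over 17 alternatives, 35 named genes gave 595 values, of which 35 changed sign, none of them called; 18 genes never did. With 3 arrays a group, differences of faint genes near background are the least certain. The normexp alternative used an offset of 50 intensity units, which pulls such differences toward 0.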
